A study of Drosophila melanogaster with 8 samples.

Results

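The data described here are the baseline transcriptome of Canton S eye discs, the wild-type Drosophila melanogaster stock in a study of the microRNA miR-998. They comprise the 2 Canton S libraries, biological replicates 1 and 2, of the 8 libraries and 4 stocks in the series, chosen by the stock named in the sample titles. Discs came from larvae of the third instar kept at 25 °C and were pooled, 30 to 50 per sample. Ribosomal RNA was depleted from total RNA before sequencing. No allele, transgene or treatment is named for Canton S, and neither the sex of the animals nor whether the pools came from separate crosses is stated, so the spread between the libraries may be technical.

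The eye disc is an epithelial sac that forms the compound eye of the fly, and it is continuous with the disc that forms the antenna. In the larva a wave of differentiation, the morphogenetic furrow, crosses the eye field: cells ahead of it divide, cells in it arrest and founder photoreceptors are chosen, and cells behind it either divide once more or differentiate. A network of transcription factors that includes the Pax6 proteins Ey and Toy commits cells to eye, while Dll, Hth and their partners commit the neighbouring field to antenna.

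The libraries held 19670470 counts in replicate 1 and 19157088 counts in replicate 2. Levels are given as TPM, counts per merged exon length scaled so that the 13285 nuclear protein-coding genes with a matched identifier sum to 1000000 in each library. Rank and percentile place a gene by mean TPM among those genes. Where a gene has a pair of values, they are those of replicates 1 and 2, and a mean ± SD has n = 2. With 1 group there was no contrast to test, and the 95% intervals given cover counting error only. Of 15682 identifiers, 680 had no match in the annotation and held 10.4% of counts in replicate 1 and 12.1% in replicate 2. One of them was the fourth most counted identifier, with 203269 and 201289 counts, and eEF1alpha1, Hsc70-4 and betaTub56D were among 42 listed genes without a match, so the order of levels lacks some abundant genes.

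Most protein-coding genes were detected. In both libraries 9340 genes, 70.3% of those ranked, reached 1 TPM, and 874 had no count in either. The median gene stood at 15.3 TPM. Levels of 10 to 100 TPM were the most common, with 5390 genes, while the 132 genes at 1000 TPM or more held 36.7% of the summed TPM. The libraries differed at the low end: 1010 genes reached 1 TPM in replicate 1 only and 156 in replicate 2 only.

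**Figure D1:**
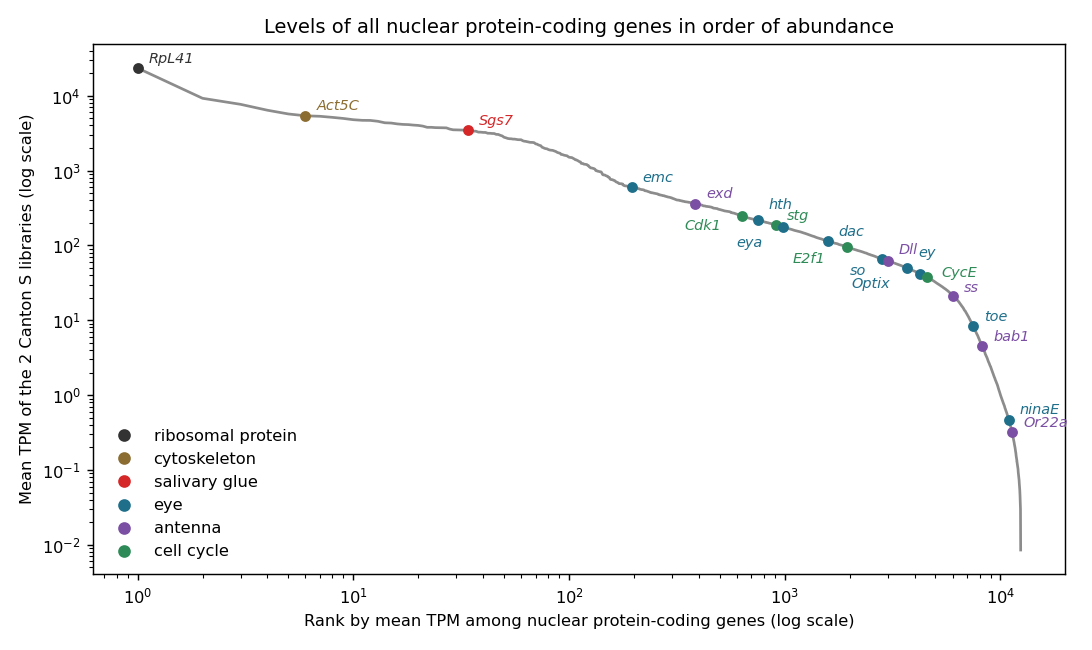
Mean TPM of each nuclear protein-coding gene (log scale) against its rank (log scale), with named genes marked. RpL41 is highest at 23334 TPM, most ribosomal protein genes are at 1000 TPM or more, and the eye, antennal and cell cycle regulators lie mostly between those levels and the median gene at 15.3 TPM.

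Genes of the cytosolic ribosome led the order. Of the 20 most abundant genes 16 encode ribosomal proteins, and so do 67 of the first 100. RpL41 came first with 22504 and 24165 TPM, followed by RpL39 with 9239 and 9193 TPM and RpS27A, which encodes a fusion of ubiquitin and a small-subunit protein, with 7555 and 7757 TPM. The libraries of these 3 genes did not overlap. RpL23, RpL29, RpL21, RpL36A, RpS23, RpLP1, RpS18, RpS3A, RpS15, RpS24, RpL14 and RpS25 were also among the first 20, with means from 5691 TPM for RpL23 to 4001 TPM for RpS25. The 83 ribosomal protein genes had a median of 2953 TPM, and 73 of them were at 1000 TPM or more. The lowest stood at 1.02 TPM.

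Outside the ribosome, the 4 highest genes were of the cytoskeleton, of translation and of protein folding. Genes outside these classes stood close behind. Among them Ance ranked 42 with 3071 and 3219 TPM, and Df31 ranked 52 with 2692 and 2666 TPM. The tubulin gene alphaTub84B averaged 6381 ± 351 TPM and ranked 4. The actin gene Act5C averaged 5378 ± 5.29 TPM, and eEF2, the elongation factor that moves the ribosome along, averaged 4957 ± 208 TPM. These 3 differed little between the libraries. The small heat shock gene Hsp23 ranked 12 with 5271 and 4060 TPM, higher in replicate 1. Of the other cytoskeletal genes tsr, the actin-severing cofilin, had 2916 and 2879 TPM and the actin gene Act42A had 1662 and 1842 TPM. Translation factors followed with the helicase gene eIF4A at 2226 and 2313 TPM, eEF1gamma at 1763 and 1952 TPM and eEF1beta at 1438 and 1541 TPM. All 26 translation factor genes with an identifier averaged 100 TPM or more.

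Chaperones were led by Hsp83, the fly Hsp90, at 2434 and 3034 TPM, the calreticulin gene Calr at 1580 and 1619 TPM, Hsc70-3, the BiP of the endoplasmic reticulum, at 921 and 1005 TPM, and the chaperonin subunit gene CCT2 at 549 and 562 TPM. Histone variants were led by His4r at 2047 and 1988 TPM and His3.3B, which replaces H3 outside S phase, at 1616 and 1561 TPM, with the chromatin protein gene D1 at 761 and 749 TPM and His2Av at 623 and 622 TPM. Of 15 chaperone genes 14 averaged 100 TPM or more. The salivary glue gene Sgs7 ranked 34 with 4493 and 2407 TPM, so it was higher in replicate 1, and its SD of 1474 TPM exceeded that of each of the 20 most abundant genes. CG13460, at 3208 and 1646 TPM, and CG14265, at 2403 and 1223 TPM, had a like difference; they were picked out after their values were seen.

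By share of all counts, the mitochondrial genome and the ribosomal protein genes took nearly the same part. The 37 mitochondrial genes took 7.36% of counts in replicate 1 and 7.27% in replicate 2. The most counted gene of all was mt:lrRNA, the large mitochondrial ribosomal RNA, with 967057 and 936496 counts. It alone took 4.92% and 4.89% of all counts. The 13 mitochondrial messenger genes took 2.37% and 2.32%, less than the ribosomal protein genes. Among mitochondrial messengers mt:CoI, a cytochrome oxidase subunit gene, had 202998 and 194838 counts and mt:CoIII had 91143 and 87072. The 83 ribosomal protein genes took 7.35% in replicate 1 (interval 7.34 to 7.36%) and 7.48% in replicate 2 (interval 7.47 to 7.49%).

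Energy and protein turnover genes took smaller shares. The 85 nuclear genes of oxidative phosphorylation took 0.696% and 0.725% of counts, with a median of 136 TPM. The 47 proteasome genes took 0.786% and 0.785%, with a median of 432 TPM. Glycolysis genes took 0.171% in replicate 1 and 0.202% in replicate 2, and all 11 were lower in replicate 1 in CPM. Of all 10665 matched genes with at least 20 counts over both libraries, 69.6% were higher in replicate 1. The glycolysis genes were led by the dehydrogenase genes Gapdh2, at 917 and 1067 TPM, and Gapdh1, at 522 and 726 TPM. The enolase gene Eno had 199 and 237 TPM and the isomerase gene Tpi had 180.2 and 236 TPM.

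**Figure D2:**
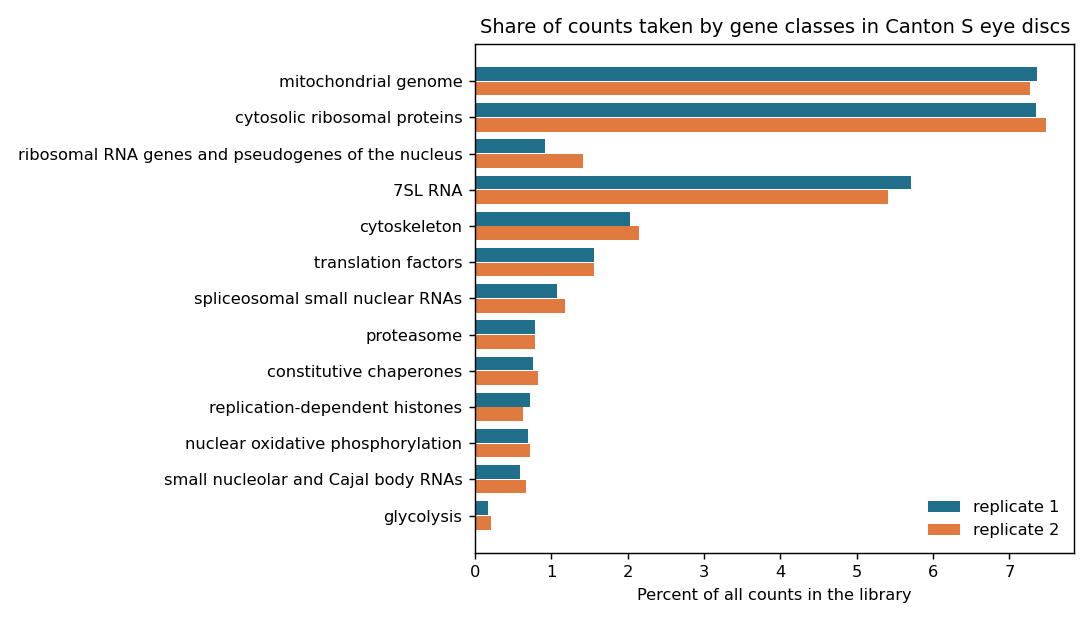
Percent of all counts (x axis) taken by each gene class in replicates 1 and 2. The mitochondrial genome and the cytosolic ribosomal protein genes each take over 7% in both libraries, and glycolysis genes 0.171% and 0.202%.

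RNAs that encode no protein took a large part of the counts. 7SL RNA, the RNA of the signal recognition particle, took 5.71% in replicate 1 and 5.41% in replicate 2. Its copies 7SLRNA:CR32864, with 562060 and 518218 counts, and 7SLRNA:CR42652, with 560265 and 517940, are nearly identical, so neither count stands alone. Their summed share may hold a read more than once. RNaseMRP:RNA, which cuts ribosomal RNA precursors, had 86073 and 80682 counts, and snRNA:7SKa, which holds the elongation factor P-TEFb inactive, had 68608 and 70957. Ribosomal RNA genes and pseudogenes of the nucleus took 0.916% of counts in replicate 1 and 1.41% in replicate 2 after depletion, with mt:lrRNA and its small partner counted in the mitochondrial share instead. Only matched identifiers enter this share, so any ribosomal RNA among the unmatched ones is left out. Small nucleolar RNAs took 0.594% and 0.661%, and transfer RNAs 0.00435% and 0.00369%. Shares of short, mitochondrial and ribosomal RNAs depend on size selection and depletion, so they do not measure levels in the disc.

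Regulators of eye fate lay mostly above the median gene. Of 16 retinal determination genes 15 reached 1 TPM in both libraries, 13 lay above the median gene, and the list's median percentile was 71.9. The highest were hth, a homeobox gene of the anterior eye field and the antenna, at 218 and 216 TPM, and the Pax6 gene toy at 204 and 218 TPM, whose libraries overlapped. eya, a phosphatase and co-activator, had 164 and 185 TPM, and nmo, a kinase gene, had 119 and 119 TPM. dac, a nuclear factor of the network, had 111 and 118 TPM, and danr, which acts with it ahead of the furrow, had 104 and 109 TPM. From toy down to danr, no gene's libraries overlapped those of the next.

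so, whose homeobox protein binds Eya, had 62.8 and 68.6 TPM, above the Pax6 gene ey at 47.8 and 52.0 TPM in every library. ey, dan at 49.1 and 48.1 TPM, ewg at 50.1 and 40.5 TPM and Optix, a Six-family gene, at 42.5 and 41.1 TPM followed in the order, and neighbours among these 4 genes overlapped. Thus toy, the upstream Pax6 gene, stood above ey, and ey could not be placed apart from dan. The lowest were the Pax gene toe, at 7.49 and 9.05 TPM, and hbn, with 45 counts in replicate 1 and none in replicate 2.

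**Figure D3:**
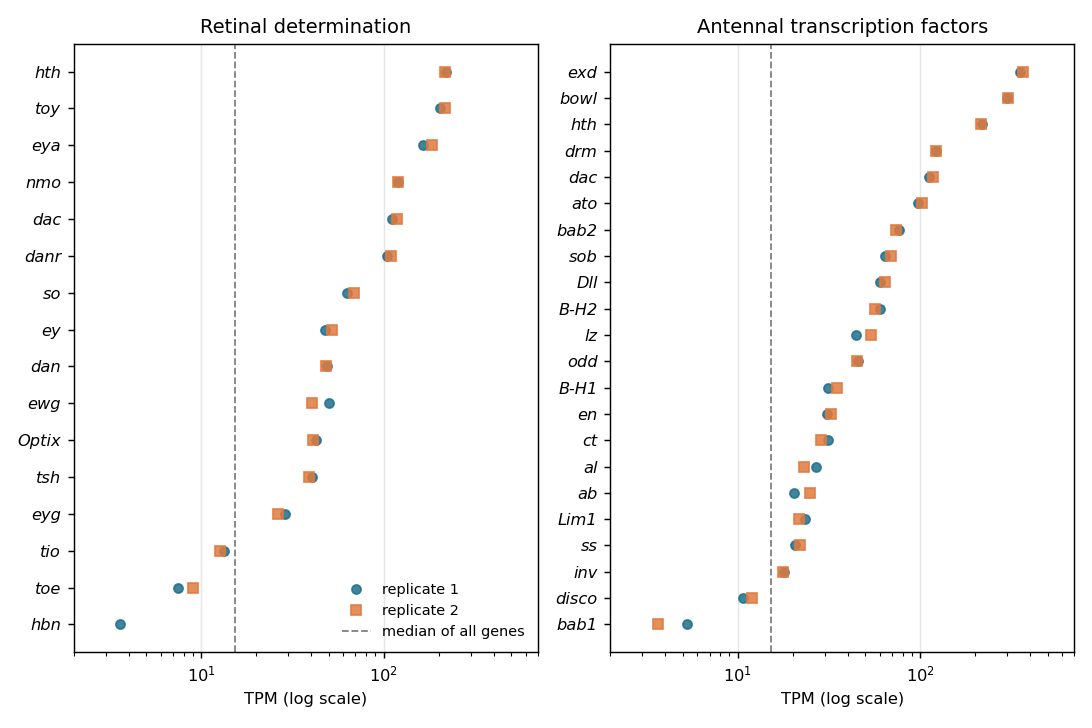
TPM (log scale) of each retinal determination gene and each antennal transcription factor gene in replicates 1 and 2, with the median of all genes as a dashed line. Most genes have nearly equal values in the replicates, while hbn had 45 counts in replicate 1 and none in replicate 2.

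Genes of the furrow and of founder cell choice had the highest median percentile of the eye lists, 86.9. With no length (CPM) it was 81.9, against 81.0 for retinal determination and 79.8 for photoreceptor differentiation. The size of this lead thus depends on the scaling by length. All 23 with an identifier, of 27 listed, lay above the median gene. emc, an inhibitor of proneural proteins, had 601 and 595 TPM, and ci, the transcriptional effector of Hedgehog signalling, had 340.4 and 359 TPM. The EGF receptor ligand gene spi had 300.3 and 306 TPM, the receptor gene N 261 and 283 TPM, Brd, an inhibitor of Notch ligand signalling, 249 and 235 TPM, and Egfr 158 and 165 TPM. None of these 6 overlapped the next in the order.

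ato, the proneural gene that founds R8 photoreceptors, had 97.7 and 102 TPM, and sens, which maintains R8 fate, had 24.3 and 22.2 TPM. The signals that drive the furrow were lower than ato, hh at 65.9 and 72.0 TPM and dpp at 37.6 and 38.8 TPM. The lowest members were ro, a homeobox gene that limits R8 number, at 17.8 and 18.9 TPM, and spdo, a regulator of Notch traffic, at 19.5 and 14.6 TPM, and their libraries overlapped.

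Photoreceptor differentiation genes had a median of 36.02 TPM, and 25 of 30 lay above the median gene. Adhesion genes led: Nrt had 184 and 165 TPM, Fas2 161 and 170.2 TPM, sdk 158 and 170.3 TPM, and rst 114 and 117 TPM, with kek1, an EGF receptor inhibitor gene, at 124 and 134 TPM. Among the first 3 the libraries overlapped. gl, a zinc finger gene required in photoreceptors, had 102 and 122 TPM, and sev, the receptor kinase gene of the R7 choice, had 63.1 and 67.8 TPM. boss, the gene of the ligand of Sev that R8 cells make, had 4.53 and 5.27 TPM, below sev in both libraries. elav, an RNA-binding protein gene of neurons, had 52.6 and 42.2 TPM. pros, a homeobox gene of R7 and cone cells and of the brain, was over 2-fold higher in replicate 1, at 28.9 and 9.26 TPM. The lowest were run, at 5.39 and 3.82 TPM, and fred, with 50 and 24 counts.

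Genes of light detection lay lower, with a median percentile of 39.8 and 7 of 26 above the median gene. The highest were general signalling genes, the G protein gene Galphaq at 116 and 111 TPM and the lipid enzyme gene Cds at 68.9 and 63.8 TPM. Next stood the rhodopsin gene Rh6 at 61.2 and 54.3 TPM, the phospholipase C gene norpA at 41.1 and 34.6 TPM, the arrestin gene Arr1 at 30.8 and 26.7 TPM and Rh5 at 24.5 and 27.7 TPM. The rhodopsins were uneven: ninaE, the main rhodopsin of the adult eye, had 5 counts in each library, Rh4 had 4 and 0, Rh2 had 1 and 0, and Rh3 was listed at 0. Rh5 and Rh6, which the larval eye also uses, had 268 and 283 counts and 599 and 496 counts, and no exon of either overlaps that of another annotated gene. The light-gated channel gene trp had 15 and 11 counts.

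Eye pigment genes had a median percentile of 55.9, with 11 of 16 above the median gene. pr, an enzyme of pteridine synthesis, led at 93.4 and 98.0 TPM. Genes of traffic to pigment granules followed, with rb at 79.3 and 82.5 TPM, lt at 66.0 and 63.1 TPM, g at 63.5 and 63.0 TPM and dor at 43.8 and 43.2 TPM. w, the transporter of pigment precursors, had 54.1 and 42.1 TPM, while its partners st and bw had 5.69 and 7.82 TPM and 1.57 and 1.13 TPM. In each library w was higher than either partner. The lowest were v, at 9 and 4 counts, and Hn, at 13 and 6.

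Genes listed as antennal regulators were present although the tissue is labelled eye disc. All 22 antennal transcription factor genes with an identifier, of 24 listed, reached 1 TPM in both libraries, 20 lay above the median gene, and their median percentile was 71.0. Several, among them hth, dac, ato, lz, B-H1 and B-H2, also act in the eye, so the list's median does not by itself measure antennal tissue. exd, the partner of Hth, led at 353 and 365 TPM, followed by bowl, a leg and antenna segmentation gene, at 298 and 302 TPM, and its relative drm at 122.3 and 122.2 TPM. Dll, the homeobox gene of distal limb fate, had 60.5 and 63.8 TPM. ct, a homeobox gene of the antenna, had 31.4 and 28.5 TPM, and ss, which selects antenna over leg, had 20.7 and 21.96 TPM. The lowest were disco, at 10.6 and 11.95 TPM, and bab1, at 5.30 and 3.66 TPM.

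Genes of the adult's chemical senses, smell receptors with some of taste, were near the floor, with a median percentile of 12.9. Of 20 such genes 5 reached 1 TPM in both libraries, and the odorant-binding protein gene Obp28a, at 199.7 and 208 TPM, was the single one above the median gene. It held 93.7% of the list's summed TPM. Os-C had 35 and 23 counts, Orco, the co-receptor of odorant receptors, 17 and 20, Ir25a 31 and 29, Ir76b 19 and 18, and Gr5a 7 and 2. The lowest with a count were Or47b and Gr64a, with 1 and 0 counts each. Gr21a and Obp83a were listed at 0. A floor of 3 counts was 0.153 CPM (counts scaled to a library total of 1000000) in replicate 1 and 0.157 CPM in replicate 2.

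**Figure D4:**
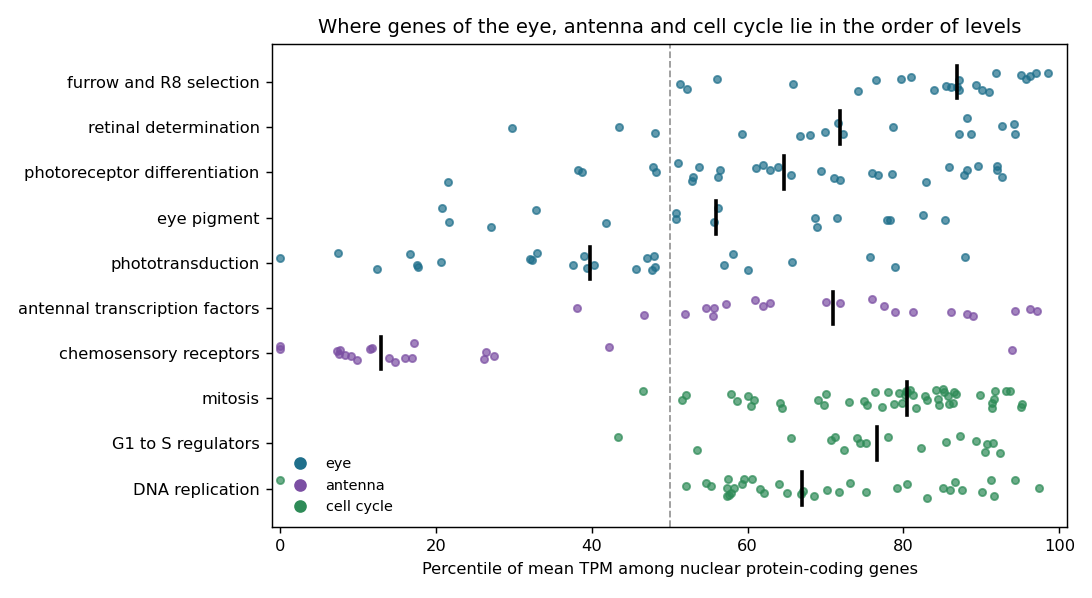
Percentile of mean TPM (x axis) of each gene in the lists of eye, antenna and cell cycle; a point is a gene, the bar is the list's median and the dashed line the median gene. Furrow genes have a median percentile of 86.9, mitosis genes of 80.5 and chemosensory genes of 12.9.

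Mitosis genes were expressed throughout: 48 of 49 lay above the median gene, with a median of 72.2 TPM and a range of 11.2 to 247 TPM. Cdk1, the mitotic kinase, had 252 and 241 TPM and ranked 634, and its cyclin genes CycA and CycB had 240.4 and 241 TPM and 158 and 160.2 TPM. The kinase gene polo had 203 and 195 TPM, and msps, a microtubule polymerase gene, 157 and 164 TPM. stg, the phosphatase that triggers mitosis, had 177 and 193 TPM, far above its relative twe, known from meiosis, at 12.7 and 9.65 TPM. The next lowest gene was rux, an inhibitor of mitotic cyclins, at 19.5 and 15.3 TPM.

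Regulators of the step from G1 to S had a median percentile of 76.6, and 17 of 18 lay above the median gene. ago, which targets cyclin E for breakdown, had 171 and 171 TPM, Dp, the partner of the E2F proteins, 156 and 158 TPM, and Myb 151 and 141 TPM. dap, an inhibitor of the cyclin E kinase, had 144 and 140 TPM, above CycE at 37.7 and 37.2 TPM. Cks30A had 124 and 127 TPM and CycD 109 and 107 TPM. E2f1, the activating E2F gene, had 99.3 and 93.1 TPM, and E2f2, the repressing one, had 63.9 and 62.9 TPM. The retinoblastoma gene Rbf had 52.6 and 56.7 TPM. The lowest were its relative Rbf2, at 21.2 and 18.7 TPM, and Cks85A, at 7.84 and 8.46 TPM.

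DNA replication genes had a median percentile of 67.0, and 35 of 36 lay above the median gene. dUTPase, which keeps uracil out of DNA, led at 386 and 392 TPM. PCNA, the polymerase clamp, had 217 and 215 TPM, and the single-strand binding gene RPA1 153 and 155 TPM. The ribonucleotide reductase genes RnrS and RnrL had 156 and 159.6 TPM and 129 and 141 TPM, and the helicase gene Mcm7 109.3 and 109.5 TPM. The lowest with a count were Prim1, a primase gene, at 22.6 and 20.2 TPM and Orc6, of the origin complex, at 17.3 and 18.9 TPM.

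Orc3, another origin complex gene, was listed at 0 in both libraries, and its exons are wholly covered by exons of the same strand. Of the 323 coding genes covered at least 90% in that way 71.8% had no count in either library, against 6.17% of the 8764 genes with no exon overlap. The zero of Orc3 is therefore no measure of its RNA. The 111 replication-dependent histone genes took 0.723% of counts in replicate 1 and 0.630% in replicate 2. Their copies are near identical, so sums were read: 27953 and 22636 counts for His1, 26474 and 23165 for His2A, 43727 and 37345 for His2B, 18430 and 15892 for His3 and 25670 and 21707 for His4. All 5 sums were higher in replicate 1. Each copy of His1 held 1030 to 1359 counts in replicate 1. Copies of His2B and His4 were less even there. The highest His2B copy held 7453 counts against a median of 1425, and the highest His4 copy 4861 against 835. How reads that match several copies were counted is not known here. The sums and the share may therefore hold a read more than once.

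Genes of the ecdysone response, the hormone that times the end of larval life, had a median percentile of 77.7, with 16 of 18 above the median gene. ImpE2, a gene first known as induced by ecdysone in discs, had 2385 and 2613 TPM, ImpE1 202 and 199 TPM, ImpE3 186 and 208 TPM and the nuclear receptor gene Hr39 112 and 112 TPM. The receptor genes EcR and usp had 78.3 and 81.5 TPM and 63.6 and 61.6 TPM. Genes of the later prepupal response were the lowest, ftz-f1 at 8.83 and 12.2 TPM and Eip93F at 5.10 and 3.65 TPM.

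Genes of sex and dosage compensation were measured in both libraries. lncRNA:roX1, a male-specific RNA that coats the X, had 12262 and 18853 counts, and lncRNA:roX2 had 2706 and 4372, so both were lower in replicate 1. The splicing regulator gene Sxl had 94.5 and 86.0 TPM and tra2 65.2 and 67.1 TPM. The share of male larvae in each pool was not tested. The 6 ranked coding genes of the Y chromosome held 23 counts in replicate 1 and 1 in replicate 2. Among genes at 1 TPM or more in both libraries, the median TPM of the X was 1.01 times that of the large autosomal arms in replicate 1 and 0.996 times in replicate 2. All 78 coding genes of chromosome 4 reached 1 TPM in both libraries, against 69.8% on those arms, with a median 3.36 and 3.38 times theirs.

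Genes listed for glia, neurons and blood cells, which are known to lie on the disc, were mostly detected. In both libraries 15 of 17 glial, 21 of 21 neuronal and 16 of 16 hemocyte genes reached 1 TPM, against 70.3% of all ranked genes. elav is also in the photoreceptor list and some glial genes serve epithelia, so these levels alone do not show such cells. In a bulk sample, fewer cells of a type and less RNA per cell cannot be told apart. Glial genes summed to 1502 TPM in replicate 1 and 1598 TPM in replicate 2, led by Gs2, glutamine synthetase, at 299.5 and 325 TPM and by the junction genes Nrx-IV, at 298 and 314 TPM, Cont, at 278 and 296 TPM, and Gli, at 205 and 222 TPM, which epithelia also use. The glial regulator gene repo had 21.2 and 18.4 TPM. Of 21 neuronal genes 10 lay above the median gene, led by the synaptic genes Csp, at 147 and 151 TPM, and unc-13, at 85.3 and 76.0 TPM, by scrt, at 63.3 and 62.6 TPM, and by elav. Of these 21 genes 20 were higher in replicate 1, as were 69.6% of all 10665 matched genes with at least 20 counts over both libraries.

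Hemocyte genes, of the blood cells, summed to 804 TPM in replicate 1 and 1000.3 TPM in replicate 2. The crystal cell gene PPO2 had 136.5 and 136 TPM, and the matrix genes Ppn, Glt and SPARC had 105 and 114 TPM, 82.6 and 120.1 TPM and 88.5 and 108 TPM. Of the 16 members 2 were higher in replicate 1, against 69.6% of all matched genes with at least 20 counts over both libraries. Hml, a gene of plasmatocytes, had 40.5 and 64.5 TPM.

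The largest differences between the libraries included midgut and larval cuticle genes. Among the 7816 matched genes of 5 CPM or more on average, the median absolute difference was 0.11 on the log2 scale, the median difference was 0.07 toward replicate 1, and 83.8% lay within 1.2-fold. Over 2-fold apart were 160 genes higher in replicate 1, or 2.05%, and 40 higher in replicate 2, or 0.512%. Over 4-fold apart were 86 genes higher in replicate 1, or 1.1%, and 20 higher in replicate 2, or 0.256%. Of the 86 genes 16 were in any list, 14 of them midgut genes, and of the 20 genes 5 were in any list, all of them larval cuticle genes. Most of the genes over 4-fold apart were thus in no list. No member of the eye, antennal or cell cycle lists at that level was over 4-fold apart. With 1.1% and 0.256% of all genes so called, this does not set these lists apart. Over 2-fold higher in replicate 1 were 1 photoreceptor differentiation gene and 1 phototransduction gene. Each side is 1 library, so these counts describe the 2 pools.

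**Figure D5:**
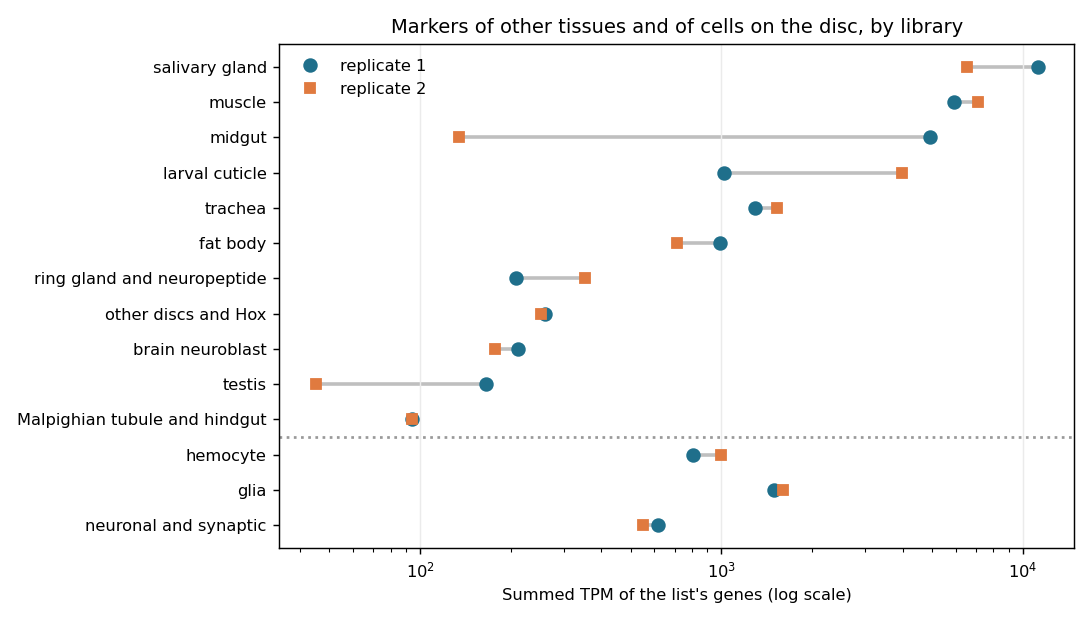
Summed TPM (log scale) of the genes in each list of other tissues and of cells on the disc, in replicates 1 and 2 joined by a bar. Midgut genes sum to 4941 TPM in replicate 1 and 135 TPM in replicate 2, and larval cuticle genes to 1018 and 3983 TPM.

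Salivary gland genes summed to 11283 TPM in replicate 1 and 6520 TPM in replicate 2, above muscle genes in replicate 1 and below them in replicate 2. The Sgs genes encode the glue that fixes the pupa in place. Sgs7 held 38.8% of the sum, followed by Sgs5 at 2473 and 1256 TPM, ng3 at 1106 and 592 TPM and Eig71Ee at 859 and 772 TPM. Ratios of replicate 1 over replicate 2 in CPM were 1.95 for Sgs7, 2.05 for Sgs5, 2.24 for Sgs4 and 1.78 for Sgs8. Of 17 members with at least 20 counts over both libraries 12 were higher in replicate 1, against 69.6% of all such matched genes. In 5 the ratio was below 1, the lowest being Eig71Ea at 0.0749, from 3 and 39 counts. The others were ng2 at 0.458, ng1 at 0.639, Sgs5bis at 0.869 and the secretory regulator gene CrebA at 0.940. The gland genes thus did not share 1 ratio.

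Midgut genes differed most sharply, at 4941 TPM in replicate 1 and 135 TPM in replicate 2. Of 16 members at 5 CPM or more 14 were over 4-fold higher in replicate 1. The digestive protease genes led: Jon65Aiv had 5997 and 11 counts, gammaTry 2754 and 2, and alphaTry 2971 and 1, a ratio of 2894 with an interval of 519 to 114324. epsilonTry had 2877 and 0 counts, and the interval of its ratio began at 759. Against a floor of 3 counts in replicate 2 the ratio would be 934. The trypsin genes are close copies and may share reads. LManII, a mannosidase gene, had 1897 and 2351 counts and did not share this difference.

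With 0.5 added to each count, the 10 largest ratios toward replicate 1 were those of epsilonTry and 9 genes outside the list. CG14300 had 2916 and 0 counts, CG7567 2247 and 0, the mucin gene Muc55B 2152 and 0, CG7298 2147 and 0 and the mucin gene Muc26B 2052 and 0. CG31789 had 2005 and 0 counts, CG6296 1519 and 0, CG10725 1443 and 0 and CG17826 6120 and 2. All were near or at 0 in replicate 2, which picking by this ratio favours. CG12934, with 3591 and 1 counts, had a larger ratio than CG17826 with nothing added.

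Testis genes were low, at 166 TPM in replicate 1 and 45.0 TPM in replicate 2. All 16 members with at least 20 counts over both libraries were higher in replicate 1, against 69.6% of all such matched genes. Mst77F, a sperm chromatin gene, had 216 and 66 counts, and the sperm tubulin gene betaTub85D had 200 and 11. fzo and mia were nearly level, at 198 and 175 and at 184 and 173 counts.

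Larval cuticle genes were higher in replicate 2, at 1018 TPM in replicate 1 and 3983 TPM in replicate 2. Of 9 members at 5 CPM or more 5 were over 4-fold higher in replicate 2. Lcp4 had 579 and 11442 counts and Lcp1 141 and 3019, while Pcp and Lcp65Ac were nearly level at 489 and 508 TPM and 297 and 346 TPM. By the same measure the 10 largest ratios toward replicate 2 held Lcp3, with 2 and 278 counts, Lcp2, with 18 and 521, Lcp65Ab1, with 4 and 493, and Lcp65Ab2, with 8 and 502. The others were CG42834, with 0 and 1179 counts, CG14332, with 1 and 3106, CG33333, with 1 and 2344, the immune recognition gene PGRP-SB2, with 5 and 522, CG42798, with 17 and 654, and CG42500, with 12 and 389.

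Steroid synthesis genes of the ring gland were lower in replicate 1, with spok at 53.6 and 134 TPM, sad at 38.7 and 76.6 TPM and phtm at 33.3 and 67.6 TPM. Akh, a hormone gene of the same gland, had 16.4 and 27.0 TPM. Some neuropeptide genes of the brain were higher in replicate 1, among them Dh31 with 69 and 22 counts and Dh44 with 77 and 24, while amn had 52 and 56. Brain neuroblast genes were led by grh at 73.1 and 79.1 TPM, klu at 26.8 and 27.3 TPM and dpn at 24.4 and 26.8 TPM, genes that discs also use, and by pros. wor, which is more specific to neuroblasts, had 107 and 7 counts.

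Fat body genes summed to 992 TPM in replicate 1 and 712 TPM in replicate 2. Of 11 members 10 were higher in replicate 1, against 69.6% of all matched genes with at least 20 counts over both libraries. The storage protein genes Lsp2, Lsp1gamma and Lsp1beta had 224 and 166 TPM, 222 and 145 TPM and 199 and 129 TPM, and Fbp1, the receptor gene for them, 166 and 122 TPM. Muscle genes summed to 5930 TPM in replicate 1 and 7131 TPM in replicate 2. They were led by the actin gene Act57B at 1601 and 1979 TPM, the myosin light chain genes Mlc2 and Mlc1 at 841 and 1094 TPM and 386 and 490.4 TPM, and the troponin gene TpnC73F at 723 and 714 TPM. The muscle sum was thus larger than the fat body sum in both libraries.

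Tracheal genes summed to 1292 TPM in replicate 1 and 1532 TPM in replicate 2, led by genes of the apical matrix, pio at 388 and 415 TPM, Gasp at 324 and 380.3 TPM, verm at 209 and 267 TPM and serp at 194 and 239 TPM. The tracheal regulator gene trh had 10.3 and 11.5 TPM. Regulators of other discs and segments summed to 260 TPM in replicate 1 and 253 TPM in replicate 2. They were led by the head Hox gene Dfd at 43.5 and 41.1 TPM, the Iroquois genes caup and ara, which also pattern the dorsal eye, at 31.8 and 31.1 TPM and 27.6 and 28.5 TPM, and bi at 26.5 and 26.6 TPM. The trunk Hox genes Antp and Ubx were lower, at 3.82 and 3.70 TPM and 1.44 and 1.37 TPM.

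Genes of Malpighian tubule and hindgut summed to 94.1 TPM in replicate 1 and 93.8 TPM in replicate 2. Best2, a chloride channel gene, held most of the sum at 61.5 and 75.04 TPM, followed by dve at 18.97 and 16.1 TPM. SecCl had 144 and 1 counts and Irk2 45 and 25. Uro, a defining tubule gene, was listed at 0.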

How the data were processed

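The authors deposited raw counts of reads per gene with no normalization, made, per the submitters' processing notes, with tools that include CASAVA 1.8.2, TopHat2 and featureCounts. Per the labels' protocols the libraries were directional and read single-end at 50 bases; neither build, annotation nor strand setting was found in the labels. Symbols, lengths and overlaps came from the Ensembl release 115 annotation, which matched 15002 of 15682 identifiers, and its exons may differ from those counted. TPM and CPM were computed from the counts with Python 3.11.15 and pandas 2.3.3; calls over 2-fold and 4-fold and the order of the largest ratios used 0.5 added to each count, while printed ratios have nothing added. edgeR 4.0.16 and DESeq2 1.42.0 in R 4.3.3 gave size factors for alternatives only. The ranking and ratio steps were tested on simulated data. Reads without molecular identifiers are not independent molecules, so intervals and the floor of 3 counts cover counting error only.

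The 31 lists held 654 genes, 612 with a matched identifier. Members and lists were chosen with earlier results of these data known. Genes named by rule were the 20 most abundant, the 10 most counted, the 6 highest and 2 lowest members of each eye, antennal and cell cycle list, 20 regulators, the 4 highest of each other list and the 10 largest ratios in each direction. Other genes named were chosen after their values were seen. One gene that the rule names is not reported here. Promoter sequences were not analysed here, and the other stocks were not used.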

Additional observations from a re-analysis of the deposited data

Results flagged for a closer look

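Identifiers with no match in the annotation held 11.3% of all counts on average, 10.4% in replicate 1 and 12.1% in replicate 2. This signal lies outside the ranked genes, and its genes are not named here.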

How the results depend on the processing

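No paired analysis was possible because the results come from no test and from 1 stock. Over the counts of nuclear protein-coding genes, ribosomal protein genes took 10.4% and the mitochondrial genome 10.2%; leaving out a library gave 7.35 to 7.48% and 7.27 to 7.36% of all counts. With no length (CPM), median percentiles were 81.0 for retinal determination, 78.6 for antennal factors, 67.9 for DNA replication and 84.9 for mitosis. Ranked only among genes of 10 or more counts in both libraries, which removes low genes from the order, they were 61.1, 59.4, 54.0 and 72.8 for the same lists in that order. With the longest transcript as length they were 75.4 for retinal determination, 66.3 for DNA replication and 79.99 for mitosis. Among genes with no exon overlap they were 73.3, 73.2 and 82.3 for those lists. That setting gave 87.0 for G1 to S regulators, above mitosis, so the order of these 2 lists depends on it. Leaving out a library gave 72.1 to 72.6 for retinal determination, 67.0 to 67.7 for DNA replication and 80.6 to 80.9 for mitosis. The mean salivary sum of 8901 TPM was 5451 TPM without Sgs7 and 2022 in CPM; the muscle sum was 6531 TPM and 9658 in CPM, so the order of the 2 sums depends on these choices. The 106 genes over 4-fold apart were 310 at a minimum of 1 CPM and 49 at 20 CPM, and within 1.5 times of 106 with edgeR's TMM scaling and DESeq2's size factors. The number of genes at 1 TPM stayed within 1.5 times under its alternatives. Lengths less 49 bases, and sums without genes of cells on the disc, were chosen after seeing the data. The first moved 1 of 31 list medians by more than the spread between libraries. The other was run on 4 sums: salivary gland, midgut, muscle and trachea. These 4 lists share no gene with the lists of cells on the disc, so it could not move them and shows nothing about them. The causes were not tested. Identifiers with no match, and overlapping genes at 0, limit what the order of levels can show.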
